A study of Mus musculus with 9 samples.

Results

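Transcripts of 3 receptor tyrosine kinases of blood cells and of their ligands were followed across 9 RNA sequencing libraries: the receptors Kit, Flt3 and Csf1r, and Kitl, Flt3l and Csf1, which encode the ligand of each. These 6 genes were found by matching their mouse symbols to the Entrez identifiers of the deposited table, and they are 6 of its 27179 genes. The cells were HPC7, a mouse line of immature blood progenitors derived from embryonic stem cells that express the factor Lhx2. They carried a murine stem cell retrovirus that also encodes a green fluorescent protein. The 3 groups of 3 libraries differed in the insert of that virus. It was none (empty vector), wild-type Snai1, or mutant Snai1 with alanine in place of phenylalanine at residue 5, in the domain through which Snai1 is known to bind the histone demethylase Lsd1. All groups grew with added Kit ligand (stem cell factor, 100 ng/ml) in medium holding 10% fetal calf serum and 0.05 mM 2-mercaptoethanol. Green cells were sorted 1 week after transduction. The inserts were expressed from a virus, in 1 cell line, and whether the replicates came from separate transductions is not stated in the labels.

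Kit, Flt3 and Csf1r are type III receptor tyrosine kinases, a family with extracellular immunoglobulin-like domains and a split kinase domain, in which a dimeric ligand brings together a pair of receptors that then phosphorylate each other. Kit binds stem cell factor, the product of Kitl, and sustains stem cells, early progenitors and mast cells. Flt3 binds the product of Flt3l and marks multipotent and lymphoid-primed progenitors and dendritic cell precursors. Csf1r binds the product of Csf1, or interleukin 34, and drives the survival and maturation of monocytes and macrophages. Snai1 is a zinc finger repressor that binds E-boxes of the letters CAGGTG.

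The promoters of Flt3 and Csf1 are shown here because these genes moved in opposite directions in the comparisons that follow. The promoter of Csf1r, which rose by more than Csf1, was not analysed here. The windows are the 250 bases before the annotated RefSeq start, 5′ to 3′ on the gene's strand, on build GRCm38. They lie at chr5:147400490-147400739 for Flt3 and chr3:107760470-107760719 for Csf1, both on the minus strand. Capitals mark matches of the general E-box CANNTG, searched on both strands.
Flt3: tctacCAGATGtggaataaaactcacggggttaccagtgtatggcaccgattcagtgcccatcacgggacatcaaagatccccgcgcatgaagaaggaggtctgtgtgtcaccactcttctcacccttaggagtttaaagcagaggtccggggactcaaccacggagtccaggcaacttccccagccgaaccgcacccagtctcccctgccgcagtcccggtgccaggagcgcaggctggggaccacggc
Csf1: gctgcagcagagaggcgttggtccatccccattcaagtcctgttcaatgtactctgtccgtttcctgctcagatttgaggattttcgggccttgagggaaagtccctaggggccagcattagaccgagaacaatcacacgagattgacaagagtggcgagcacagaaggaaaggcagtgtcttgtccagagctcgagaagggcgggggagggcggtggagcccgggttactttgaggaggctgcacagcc
The Flt3 window held 1 general E-box, CAGATG, at 245 to 240 bases before the start, and the Csf1 window held 0. Flt3l, which was not called in any comparison, held 2 (CAGCTG and CACTTG), and Kit and Kitl held 0. The Kitl and Flt3l windows reach into the gene spans given for them below. Of the window bases, 191 for Kitl and 71 for Kit are annotated exon. No bases outside such windows were searched, and a part of E-boxes in the changes was not tested. The CAGGTG form, which is a special case of CANNTG, was found in 0 windows of Kit, Flt3, Kitl, Flt3l and Csf1, while 17.1% of 27025 promoter windows of this length held it and 66% held CANNTG. Such matches describe letters only. Binding of Snai1 was not measured.

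The libraries held 18332451 to 20860314 counts, so that 3 counts, the limit that a count of 0 allows, corresponded to 0.144 to 0.164 CPM (counts scaled to a common library total). Levels are CPM after TMM scaling, a correction of library size, and levels compared between genes are CPM per kb of the deposited gene length. Snai1 was at 0.828 ± 0.205 CPM in the controls, and at 492 ± 68.5 and 460 ± 40.2 CPM in cells given the wild type and the mutant (SD, n = 3), whose libraries overlapped. All 10 blood progenitor markers, among them Cd34, Ptprc and Itga2b, exceeded 1 CPM in each group. Libraries in 2 groups stood apart. Mitochondrial ribosomal RNA made up 0.413% of counts in empty vector replicate 1 and 0.0354% to 0.0591% elsewhere. A single gene without a symbol took 3.62% of counts in that library and 0.101% to 0.280% elsewhere. On the second principal component wild-type replicate 1 lay at -36.1 against 15.6 and 21.2 for the other wild-type libraries. A fold change is the log2 estimate of edgeR's quasi-likelihood fit on all libraries with its standard error (SE). A gene is called when its p, adjusted over 12484 tested genes by the Benjamini-Hochberg method, is under 0.05.

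Of the members, 5 had enough counts to be tested and Kitl did not. With wild-type Snai1 against empty vector, 3 of the 5 were called, Csf1r and Csf1 higher and Flt3 lower, and Kit and Flt3l were not. In this comparison 49.4% of all tested genes were called, 25.2% higher and 24.3% lower, and 55.5% had an unadjusted p under 0.05, so a call alone sets no member apart. Both comparisons with empty vector share the same 3 controls. The sizes of these differences, the level of each gene and the mutant libraries are therefore given member by member.

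Kit was by far the most abundant of the 6 transcripts. It was at 3684, 3592 and 3565 CPM in empty vector replicates 1 to 3, at 3643, 3284 and 3241 CPM with wild-type Snai1, and at 3512, 3722 and 3387 CPM with mutant Snai1. The 3 groups overlapped, with wild-type replicate 1 inside the control range and the other wild-type libraries below it. Per length, Kit ranked 43rd of 12484 tested genes in the controls, 41st with the wild type and 42nd with the mutant. It alone took 0.313% to 0.381% of all counts in a library. The log2 fold change was -0.09 (SE 0.06) with wild-type Snai1 (95% interval -0.23 to 0.05, adjusted p 0.257 in edgeR's quasi-likelihood test). This outcome depended on which libraries entered the fit. Without wild-type replicate 1 Kit was called lower, at -0.15 with adjusted p 0.0126. Without both libraries that stood apart it was not called, at -0.14 with adjusted p 0.0531. With the mutant the log2 fold change was -0.03 (SE 0.06, interval -0.17 to 0.11, adjusted p 0.999).

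Flt3 transcripts were low with wild-type Snai1 and in no other group. Levels were 33.3, 30.0 and 23.5 CPM with empty vector, 2.14, 1.47 and 2.11 CPM with wild-type Snai1, and 26.7, 27.6 and 28.4 CPM with mutant Snai1. Every wild-type library lay below every library of both other groups, while all mutant libraries fell inside the control range. The fall with the wild type was 15.2-fold, a log2 fold change of -3.92 (SE 0.17, interval -4.30 to -3.54, adjusted p 7.43e-08). Among all tested genes 26 had a more negative value. Counts in the wild-type libraries were 43, 30 and 42, so the level there rests on few reads but lies above the 3 counts that a 0 would allow. Without both libraries that stood apart the log2 fold change was -3.92 (adjusted p 3.66e-11). In RNA from many cells, fewer cells with a transcript and less of it per cell cannot be told apart.

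Csf1r showed the opposite change, from a low level of 33 to 50 counts a library in the controls. It was at 1.75, 1.83 and 2.68 CPM with empty vector, 21.5, 13.3 and 25.1 CPM with wild-type Snai1, and 1.94, 2.00 and 1.84 CPM with mutant Snai1. All wild-type libraries lay above all others, and wild-type replicate 2 was the lowest of them. The spread within the wild-type group, a coefficient of variation of 30.2%, was the widest of any tested member in that group. The rise was 9.55-fold, a log2 fold change of 3.26 (SE 0.25, interval 2.69 to 3.82, adjusted p 4.30e-06), and 170 tested genes had a larger value. Without both libraries that stood apart it was 3.08 (adjusted p 1.68e-04). In the GENCODE annotation, 873 of 5774 Csf1r exon bases overlap exons of Hmgxb3 on the opposite strand. In RefSeq the genes lie 0.137 kb apart. The deposited Csf1r length is 3875 bases, so the overlap may lie outside the counted bases, and the strand setting of the counting is not given in the sources used here. Hmgxb3 itself was at 104 ± 5.88 CPM with empty vector and 112 ± 15.1 CPM with wild-type Snai1 (SD, n = 3; log2 fold change 0.11, SE 0.09, adjusted p 0.357), and Csf1r was counted at only 2.09 ± 0.515 CPM in the controls beside it.

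**Figure D1:**
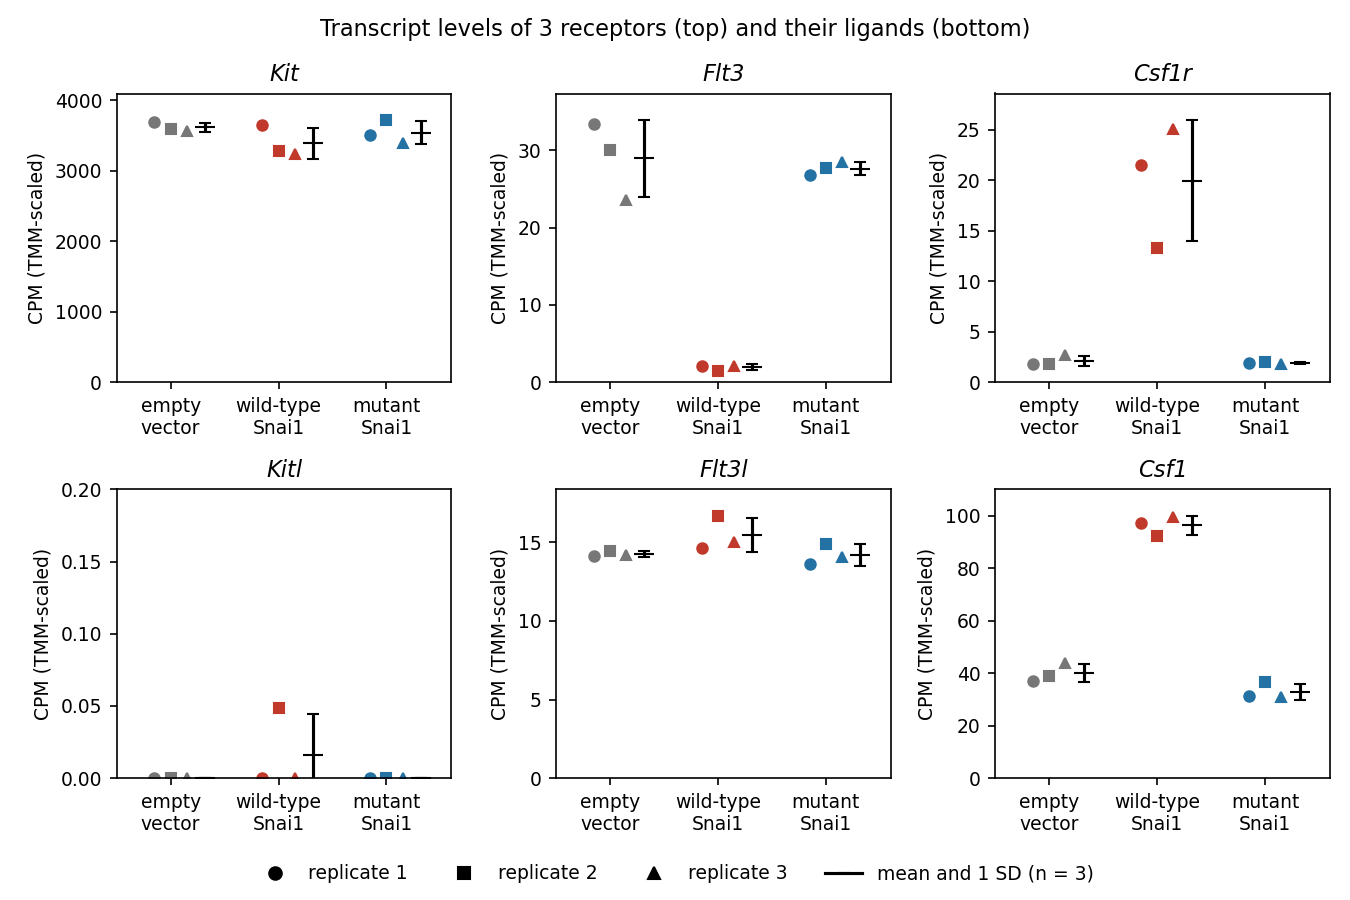
Levels of the 3 receptor genes (top) and of the ligand gene of each (bottom) in TMM-scaled CPM on linear axes that start at 0. Markers are libraries, shaped by replicate number, and black bars are the mean and 1 SD of 3 libraries. Flt3 was low, and Csf1r and Csf1 were high, in all wild-type Snai1 libraries, while the mutant libraries of Flt3 and Csf1r lay within the control range.

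Set side by side per length, Flt3 and Csf1r exchanged their order with wild-type Snai1. In empty vector replicates 1 to 3 the Flt3 level per kb was 20.1, 17.3 and 9.28 times that of Csf1r, and with mutant Snai1 it was 14.6, 14.7 and 16.4 times. With wild-type Snai1 the Csf1r level was 9.46, 8.56 and 11.2 times that of Flt3. The 3 receptors together summed to 706 ± 13.1 CPM per kb in the controls, against 660 ± 42.8 for wild-type and 691 ± 32.6 for mutant Snai1 (SD, n = 3). Kit made up 98.8% of this sum in the controls and 99.1% with wild-type Snai1, so the exchange took place among the remaining transcripts. Flt3 went from 1.12% ± 0.176 of the receptor sum to 0.0789% ± 0.0144, and Csf1r from 0.0766% ± 0.0201 to 0.781% ± 0.242. These shares describe RNA and not receptor protein.

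**Figure D2:**
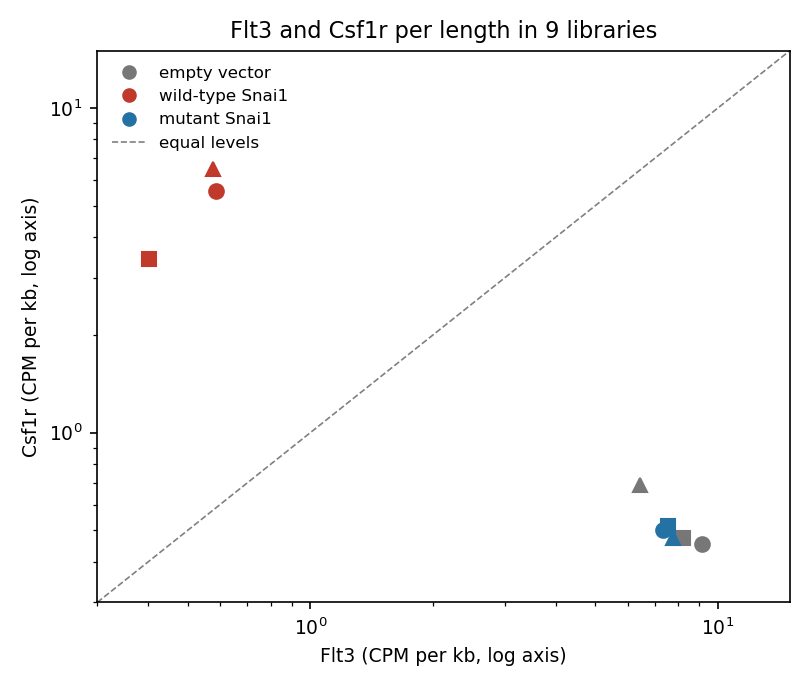
Csf1r against Flt3 in CPM per kb on log axes, with 1 marker per library, shaped by replicate number, and a dashed line of equal levels. The 3 wild-type Snai1 libraries lie above the line, with Csf1r 8.56 to 11.2 times Flt3, and the 6 others lie below it.

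Among the ligands, Csf1 rose with wild-type Snai1 together with the gene of its receptor. It was at 37.2, 38.9 and 43.8 CPM with empty vector and at 97.3, 92.4 and 99.5 CPM with wild-type Snai1. The groups did not overlap, and the rise was 2.41-fold, a log2 fold change of 1.27 (SE 0.08, interval 1.08 to 1.46, adjusted p 1.39e-06). Without both libraries that stood apart it was 1.21 (adjusted p 9.07e-09). Since Csf1r rose by more, the Csf1 level per kb went from 17.2 ± 2.47 times that of Csf1r in the controls to 4.51 ± 1.38 times (SD, n = 3). With mutant Snai1, Csf1 was at 31.3, 36.5 and 31.0 CPM, all below the lowest control. Its log2 fold change was -0.28 (SE 0.09, interval -0.47 to -0.09), with an unadjusted p of 0.00885 and an adjusted p of 0.980, so it was not called.

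Flt3l, the gene of the Flt3 ligand, differed little between groups. It was at 14.1, 14.4 and 14.2 CPM with empty vector, 14.6, 16.7 and 15.04 CPM with wild-type Snai1, and 13.6, 14.9 and 14.1 CPM with mutant Snai1. All wild-type libraries lay above the controls by a small margin, as 56.6% of tested genes had groups that did not overlap in this comparison. The log2 fold change was 0.12 (SE 0.09, interval -0.08 to 0.31, adjusted p 0.290) with the wild type and -0.0061 (SE 0.09, interval -0.20 to 0.19, adjusted p 0.999) with the mutant. A change as large as that of Flt3 or Csf1 lies outside both intervals. In GENCODE, 856 of 3878 Flt3l exon bases overlap Gm45713 on the same strand. The deposited Flt3l length is 1075 bases, so that overlap too may lie outside the counted bases.

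Kitl, which encodes the factor these cells are grown in, was not detected beyond 1 count. It had 0 counts in all libraries except wild-type replicate 2, which had 1, or 0.0489 CPM. This single count lies under the limit of 3 counts that a 0 allows. Il34, the gene of the other Csf1r ligand, had 0 counts in all 9 libraries. Kit was thus read at 3241 CPM or more in cells whose own Kitl transcript lay under this limit, while Flt3l and Csf1 were read in every library.

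In the controls the order of levels per kb was Kit (697 ± 12.0), Flt3l (13.3 ± 0.158), Csf1 (9.03 ± 0.776), Flt3 (7.91 ± 1.37) and Csf1r (0.539 ± 0.133), with Kitl at 0 (SD, n = 3). Csf1 and Flt3 were neighbours whose libraries overlapped, at 8.41 to 9.90 and 6.43 to 9.12 CPM per kb. The mutant gave Kit (683 ± 32.7), Flt3l (13.2 ± 0.623), Flt3 (7.55 ± 0.228), Csf1 (7.45 ± 0.702) and Csf1r (0.497 ± 0.0203). There Flt3 and Csf1 again overlapped. Wild-type Snai1 gave Kit (654 ± 42.5), Csf1 (21.8 ± 0.827), Flt3l (14.4 ± 1.01), Csf1r (5.15 ± 1.55) and Flt3 (0.521 ± 0.104), and no neighbours in that order overlapped. Csf1 thus stood above Flt3l only with the wild type. Among all tested genes, the wild type moved Csf1 from the 39.5th to the 63.9th percentile per length, Csf1r from the 8.59th to the 29.0th and Flt3 from the 36.3rd to the 7.71st.

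With mutant Snai1 against empty vector 0 of the 5 tested members were called by edgeR and 0 by DESeq2, and 1, Csf1, had an unadjusted p under 0.05. In this comparison 0.00801% of tested genes were called, which is Snai1 alone of 12484, and 4.83% had an unadjusted p under 0.05. Groups did not overlap for 1 of the 5, Csf1, and for 17.6% of all tested genes. The interval for Flt3, -0.36 to 0.22, spans 0.779-fold to 1.17-fold, while that for Csf1r, -0.77 to 0.54, is wider. Csf1r counts were 33 to 50 a library in the controls and 36 to 40 with the mutant. The SE of 0.30 comes from a fit that includes the wild-type libraries, and it was 0.21 in a fit of only the compared groups. It was 0.36, 0.20 and 0.26 without wild-type replicate 1, 2 or 3, and 0.455 without both libraries that stood apart. A miss of the threshold does not show that these levels were equal.

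The direct test of wild-type against mutant Snai1, whose Snai1 levels did not differ beyond their spread (log2 fold change 0.10, SE 0.11, adjusted p 0.479), called the same 3 members. Of all tested genes 47.9% were called here, 24.5% higher and 23.4% lower, 54.2% had an unadjusted p under 0.05 and 55.8% had groups that did not overlap. Flt3 was 14.5-fold lower with the wild type (log2 fold change -3.85, SE 0.17, adjusted p 9.67e-08). Csf1r was 10.3-fold higher (3.37, SE 0.25, adjusted p 3.69e-06) and Csf1 2.93-fold higher (1.55, SE 0.09, adjusted p 4.18e-07). For these 3 genes every wild-type library lay beyond every mutant library. Kit differed by -0.06 (SE 0.06, interval -0.20 to 0.08, adjusted p 0.448) and Flt3l by 0.12 (SE 0.09, interval -0.07 to 0.32, adjusted p 0.269). Without wild-type replicate 1 Kit was called here too, at -0.12 with an adjusted p of 0.0393. This comparison shares its wild-type libraries with the first one, so both are not independent.

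**Figure D3:**
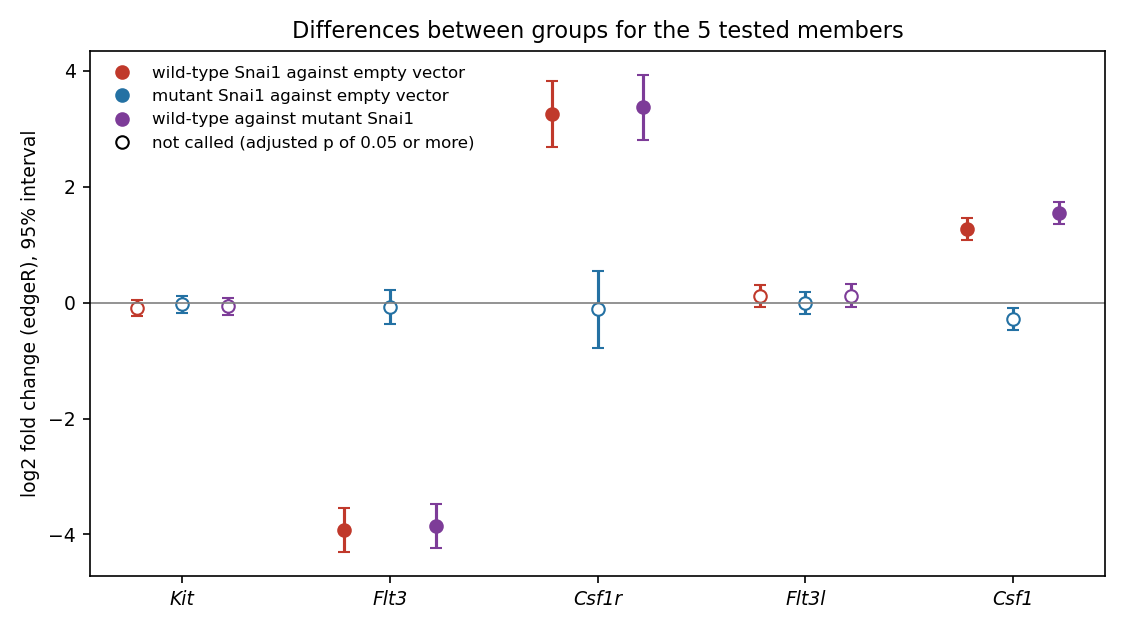
Log2 fold changes of the 5 tested members in 3 comparisons, from edgeR's fit on all 9 libraries, with 95% intervals. Filled points were called at an adjusted p under 0.05, open points were not. The points of wild-type Snai1 against empty vector and against the mutant lie near -3.9 for Flt3, above 3 for Csf1r and above 1 for Csf1, while every open point lies within 0.3 of 0.

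Kit and Csf1r sit beside relatives in the genome, and these relatives did not share their levels. Kit (chromosome 5, 75574987 to 75656722) lies between Pdgfra and Kdr, 377 and 276 kb away, which encode receptors for platelet-derived and vascular endothelial growth factors. Pdgfra was at 0.0177 CPM and Kdr at 0 CPM with empty vector. Csf1r (chromosome 18, 61105572 to 61131139) starts 20.5 kb after the end of Pdgfrb, which encodes a further member of the family. Pdgfrb was at 505 ± 20.1 CPM with empty vector and fell to 386 ± 57.5 CPM with wild-type Snai1, where Csf1r rose (SD, n = 3; log2 fold change -0.39, SE 0.09, adjusted p 0.00596). Flt3 (chromosome 5, 147330741 to 147400489) lies between Urad, 8.3 kb away and not tested, and Pan3, 25.7 kb away, a subunit of a deadenylase. Pan3 was called lower with wild-type Snai1, as were 24.3% of all tested genes. Its log2 fold change of -0.21 (SE 0.05, adjusted p 0.00566) was far smaller than the -3.92 of Flt3. Kitl is on chromosome 10 (100015615 to 100100416), Flt3l on chromosome 7 (45131183 to 45136490) and Csf1 on chromosome 3 (107741048 to 107760469). The tested genes beside Flt3l, Rpl13a (-0.26, SE 0.14, adjusted p 0.145) and Aldh16a1 (-0.16, SE 0.10, adjusted p 0.220), were not called with wild-type Snai1. Neither was Ahcyl1, beside Csf1 (0.02, SE 0.05, adjusted p 0.820).

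The genes whose log2 CPM followed the members most closely over the 9 libraries are given by Pearson's r as a description. The points share their libraries. For Flt3, Csf1r and Csf1 these divide into wild-type Snai1 and the rest, which alone gives high values. Kit and its closest genes were not called with wild-type Snai1, and how much of their r comes from spread within groups was not tested. For Flt3 the closest genes were Tspan13, Ezr and Nipsnap1, each with r of 0.998. Ezr, which encodes the membrane-cytoskeleton linker ezrin, went from 121 ± 8.27 to 28.4 ± 3.10 CPM and stayed at 127 ± 4.65 CPM with the mutant (SD, n = 3). For Csf1r they were Rdh10 (0.997), Fam76a (0.993) and Ecm1 (0.992). Ecm1, a secreted matrix protein, rose from 7.39 ± 0.491 to 58.0 ± 8.72 CPM (log2 fold change 2.97, SE 0.13, adjusted p 6.93e-08). For Csf1 they were Adam17 (0.998), Oxct1 (0.995) and Lyst (0.995), for Kit Ift46 (0.967), Slc17a5 (0.962) and Crebl2 (0.955), and for Flt3l Srp54c (0.928), Htra2 (0.919) and Dennd1a (0.916). Srp54c has near-identical copies and Htra2 overlaps neighbouring genes in GENCODE, so their reads are uncertain. Among the members, Csf1r and Csf1 had r of 0.981, Flt3 had -0.975 with Csf1r and -0.973 with Csf1, and Kit had values between -0.523 and 0.577 with the others.

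Of the proteins that carry the receptors' signal, 41 genes were listed and all were tested. With wild-type Snai1 14 were called higher and 9 lower, 56.1% against 49.4% of all tested genes, and the median log2 fold change was 0.09 against -0.00033. Lyn, a Src family kinase that acts at Kit, rose from 76.1 ± 2.02 to 181 ± 30.6 CPM (SD, n = 3; log2 fold change 1.25, SE 0.10, adjusted p 4.65e-06). Gab3, an adaptor of Csf1r signalling, rose by 2.45 (SE 0.27, adjusted p 4.27e-05) from only 0.651 CPM. The phosphoinositide 3-kinase subunit gene Pik3cb rose by 0.87 (SE 0.08), the adaptor gene Crk by 0.51 (SE 0.05) and the kinase gene Fer by 1.43 (SE 0.16), with adjusted p of 1.08e-05, 1.49e-05 and 3.85e-05. Stat5a, a transcription factor activated by these receptors, fell from 232 ± 9.03 to 163 ± 1.78 CPM (log2 fold change -0.51, SE 0.05, adjusted p 1.37e-05). In GENCODE, Stat5a shares 72 exon bases with Stat3 on the opposite strand and Lyn shares 248 with another gene, and whether these bases were counted is not known.

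Of 19 genes that restrain the receptors, all tested, 6 were called higher and 7 lower, 68.4% against 49.4% of all tested genes, with a median log2 fold change of 0.02. Socs1 and Socs2, which encode suppressors of cytokine signalling, moved apart. Socs1 rose by 2.14 (SE 0.26, adjusted p 7.38e-05) from 0.513 CPM, and Socs2 fell by 1.40 (SE 0.21, adjusted p 3.13e-04) from 10.7 CPM. Sla, an adaptor that promotes receptor degradation, rose from 19.8 ± 4.10 to 50.4 ± 2.92 CPM (SD, n = 3; log2 fold change 1.35, SE 0.13, adjusted p 1.71e-05). The Ras pathway inhibitors Spred1 and Spred2 rose by 1.03 (SE 0.14, adjusted p 2.77e-04) and 0.58 (SE 0.07, adjusted p 7.58e-05). Ptprj, a receptor phosphatase that acts on Flt3, fell from 41.9 ± 3.12 to 20.9 ± 1.42 CPM (log2 fold change -1.01, SE 0.10, adjusted p 1.62e-05).

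Of 19 related receptors, ligands and proteases that release these ligands or receptors from the cell surface, 12 were tested, 4 called higher and 1 lower, 41.7% against 49.4% of all tested genes, with a median log2 fold change of 0.17. Adam17, the protease that cleaves Csf1r and membrane-bound Csf1, rose from 88.6 ± 1.89 to 130 ± 1.26 CPM (SD, n = 3; log2 fold change 0.55, SE 0.05, adjusted p 1.09e-05). Mmp9, a protease known to release the Kit ligand, rose by 4.02 (SE 0.39, adjusted p 3.14e-05), and Pdgfa rose by 1.07 (SE 0.17, adjusted p 5.11e-04). Adam10 rose by 0.22 (SE 0.08, adjusted p 0.0388), a call that 11 of 16 alternative settings did not keep. Tie1 differed by -0.14 (SE 0.05, adjusted p 0.0564). In GENCODE, exons of Pdgfa overlap another gene over 813 of 3119 bases and those of Adam17 over 311 of 7154, both on the opposite strand, and whether these bases were counted is not known.

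Of 27 transcription factors known to act at Kit, Flt3 or Csf1r, 24 were tested, and 7 were called higher and 7 lower, 58.3% against 49.4% of all tested genes, with a median log2 fold change of 0.10. Mitf, a factor of mast cells that acts at Kit, went from 9.37 ± 0.133 to 53.3 ± 7.47 CPM (SD, n = 3; log2 fold change 2.51, SE 0.12, adjusted p 1.08e-07). Lmo2, a bridging protein of the complex that binds Kit, rose by 1.01 (SE 0.07), and Ets2, an activator of Csf1r, by 1.11 (SE 0.08), with adjusted p of 1.52e-06 and 2.15e-06. Runx1, which acts at Csf1r, fell by 0.95 (SE 0.07, adjusted p 3.98e-06), Gata1 fell by 2.22 (SE 0.17, adjusted p 4.07e-06) and Myb, which acts at Kit and Flt3, fell by 0.67 (SE 0.07, adjusted p 2.97e-05). With mutant Snai1 0 genes of any of these 4 lists were called by edgeR and 0 by DESeq2, and 3, 1, 1 and 1 of them, in the order of the text, had an unadjusted p under 0.05, against 4.83% of all tested genes. Between wild type and mutant 24 of 41, 13 of 19, 5 of 12 and 13 of 24 tested were called, against 47.9% of all tested genes.

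**Figure D4:**
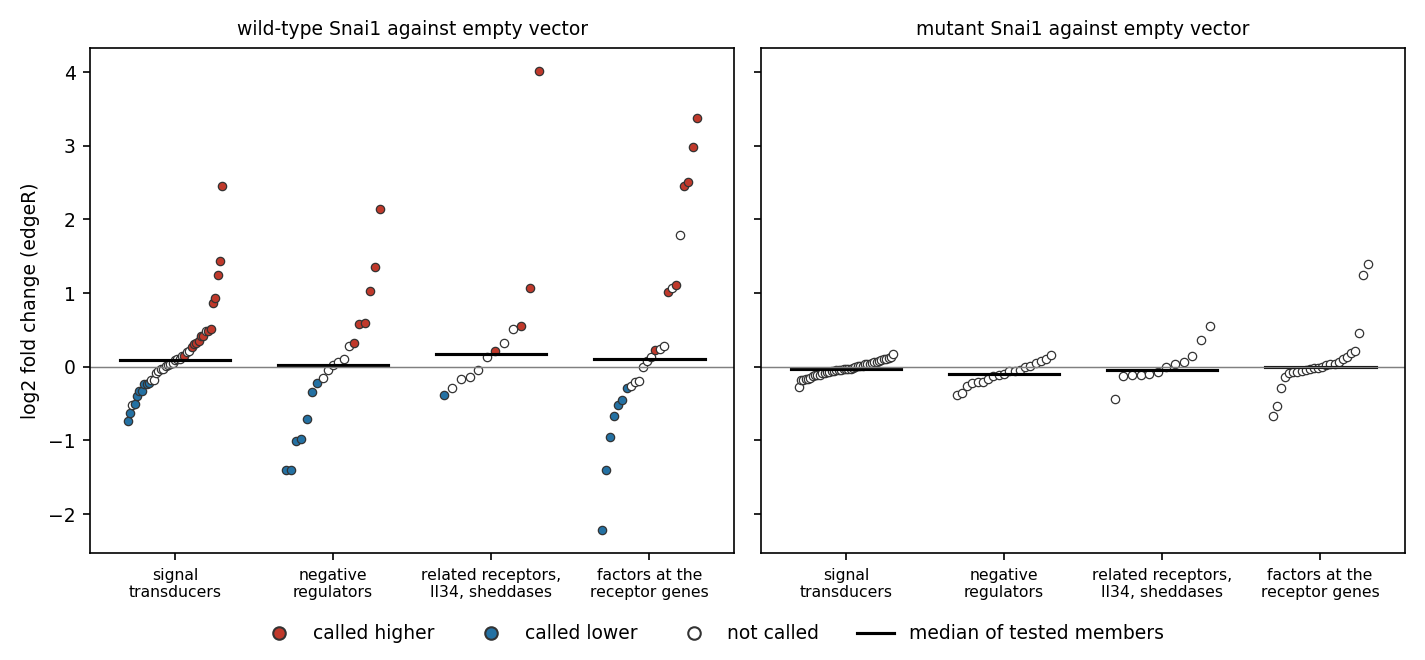
Log2 fold changes of the tested members of 4 lists, with 1 point per gene in order of size and a bar at the median, for wild-type Snai1 (left) and mutant Snai1 (right) against empty vector. In the left panel each list holds genes called higher and genes called lower around medians of 0.02 to 0.17, and the right panel holds 0 called genes.

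Markers of cell types that depend on these receptors moved with the receptors in part. The summed level of 16 monocyte and macrophage markers was 184 to 217 CPM with empty vector, 876 to 1469 CPM with wild-type Snai1 and 187 to 212 CPM with the mutant, and 8 of 12 tested markers were called higher and 3 lower with the wild type. For these and the following marker counts the background is the 25.2% of all tested genes called higher and 24.3% called lower. Some markers passed the filter on low counts through the wild-type group alone, where only a rise could be called. Ly6c2 had 0, 259 and 0 counts with empty vector, wild type and mutant, and the dendritic cell marker Clec9a 0, 75 and 2. The counts of calls are therefore a description and not a test. The most abundant monocyte and macrophage markers were Ccr2, Lyz2 and Mpeg1, at 410 ± 188, 406 ± 96.5 and 120 ± 39.5 CPM with wild-type Snai1 (SD, n = 3). C1qa had 0 counts in every library. The part of these markers' cell types in the rise of Csf1r and Csf1 was not tested. The 12 dendritic cell markers summed to 34.6 to 42.6, 39.7 to 64.4 and 40.2 to 43.5 CPM in the same order of groups. Siglech had 0 counts in every library, Bst2, Cd74 and Itgax were the most abundant, and of 6 tested 2 were called higher and 1 lower with the wild type. Of 14 mast cell markers, which include products of Kit-dependent cells, Cpa3 made up most of a sum of 2781 to 3158, 3524 to 3801 and 3113 to 3270 CPM, followed by Gzmb and Hdc. Mcpt1, Mcpt2 and Mcpt8 had 0 counts in every library, and 1 of 4 tested was called higher and 1 lower. The 10 stromal markers, from the cells that make Kit ligand in marrow, summed to at most 0.0979 CPM, with single counts of Lepr, Col1a1 and Col1a2 and with Col3a1, Dcn, Lum, Cxcl12, Thy1 and Pdpn at 0 in every library. The 10 blood progenitor markers summed to 4767 to 4834, 5511 to 6562 and 4748 to 4974 CPM, with 2 called higher and 5 lower with the wild type.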

How the data were processed

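RNA was sequenced from 9 libraries of HPC7 cells, made with the TruSeq stranded mRNA kit per the labels' protocols. The deposited table holds raw counts for each Entrez gene, with its length, per the file headers. The submitters' processing notes list featureCounts, mm10, limma 3.29.12 and edgeR 3.15.0. The aligner, annotation and strand setting are not given in the sources used here.

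Symbols came from the GRCm38.p6 RefSeq table for 25275 of 27179 identifiers, exon overlaps from GENCODE M21, and promoters from RefSeq. With edgeR 4.0.16 in R 4.3.3, genes were filtered with filterByExpr and scaled with TMM, and all 9 libraries entered 1 robust quasi-likelihood fit without a replicate block. The SE is the fold change divided by the root of the F statistic. For correlations, log2 CPM were computed with 2 prior counts. The fit was also run on simulated counts drawn with its own estimated spread and few changed genes. Because far more genes were called here, that run does not show how the fit performs on these data. The alternatives were RLE scaling, no filter, DESeq2 1.42.0, a replicate block, only the compared groups, and each library left out. Total-count scaling, and leaving out both libraries that stood apart, were added after the data were seen.

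The 6 members and the 9 gene lists were chosen with earlier results of these data known. All 168 listed symbols were matched. The rule named every member, up to 6 genes per pathway list with the smallest adjusted p for wild-type Snai1, up to 3 called with the mutant, the 3 closest patterns per member among genes averaging 1 CPM or more, and in each marker list the 3 most abundant genes and those at 0 counts. Hmgxb3, Il34 and the genes beside the members were chosen after their values were seen. No libraries of a group agreed within sampling noise, with chi-square values of 4.72 to 73.4 per degree of freedom. Because separate cultures are not stated, p-values reflect library-to-library spread alone, possibly technical, and limits from counts cover counting error only.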

Additional observations from a re-analysis of the deposited data

How the results depend on the processing

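The calls of Flt3, Csf1r and Csf1 with wild-type Snai1, against empty vector and against the mutant, kept their direction and their side of the threshold under all 16 alternatives. For Kit, leaving out 1 library at a time gave log2 fold changes of -0.147 to -0.0493 against empty vector and -0.118 to -0.0263 against the mutant, and it was called in both only without wild-type replicate 1. With mutant Snai1, where no member was called, Csf1 kept its sign under all alternatives (-0.358 to -0.205 with 1 library left out) and the other tested members changed sign in places. The ranges with 1 library left out were -0.0666 to 0.0022 for Kit, -0.196 to 0.0456 for Flt3, -0.221 to 0.103 for Csf1r and -0.0432 to 0.0237 for Flt3l. Flt3 was at 0.0435 without both libraries that stood apart, and Flt3l at 0.0139 with no scaling beyond total counts. Over all genes with mutant Snai1, 1 was called higher and 0 lower. DESeq2 called 6 and 4, a fit of only the compared groups 13 and 17, and a fit without both libraries that stood apart 11 and 18. Leaving out 1 library gave 1 to 28 higher and 0 to 34 lower, the most without wild-type replicate 1, and the cause was not tested. With the replicate number as a block, the log2 fold changes with wild-type Snai1 were -3.92 for Flt3, 3.23 for Csf1r, 1.27 for Csf1 and -0.09 for Kit, and no call of a member changed. Deviations from group means were correlated between libraries of different groups. Of 9 pairs with the same number 2 had r over 0.1, the highest 0.210, against 1 of 18 other pairs. For 4 of 9 libraries the best match had the same number. What a number stands for is not stated, so the numbers were not used as pairs. Depth limits Csf1r outside the wild-type group and Flt3 within it, which rest on 30 to 50 counts a library.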
